A study of Saccharomyces cerevisiae with 6 samples.

Results

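The genes described here encode the proteins of the large subunit of the cytosolic ribosome of *Saccharomyces cerevisiae*, chosen by their names in the authors' table of gene levels (*RPL* with a number, and the stalk genes *RPP0*, *RPP1A*, *RPP1B*, *RPP2A* and *RPP2B*; the RNase P gene *RPP1* was left out). The rule found 61 genes among the 5297 entries of the table. The annotation of the laboratory strain S288C (assembly R64) holds 81 genes with such names, and the other 20 are outside the rule. *RPL4B* and *RPL4A* share 1 joint entry under their systematic names (459 counts for both together). The other 18 have no entry under their gene name or systematic name, so they are not analysed here. The study sequenced mRNA from meiotic cultures of SK1 diploids, 3 *SPO11* cultures and 3 *spo11-YF* cultures. *SPO11* cells carry the functional nuclease that makes meiotic DNA breaks, and in *spo11-YF* cells its catalytic site is mutated so that no breaks form. All 6 cultures lack *NDT80*, so that they stop in meiotic prophase, and they also lack the phosphatase gene *PPH3*, whatever their *SPO11* allele. Cells were grown in rich and then in premeiotic acetate medium, moved to potassium acetate sporulation medium and, by the methods of the study, harvested 4 h later.

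The large subunit carries the peptidyl transferase centre, which joins amino acids, and the tunnel through which the new chain leaves. Most of its proteins are encoded in yeast by a pair of genes, copy A and copy B, that arose largely by duplication of the whole genome. Growing yeast cells make large amounts of these mRNAs, through the transcription factors Rap1, Fhl1 and Ifh1 and under the control of nutrient signalling, and starvation for nutrients lowers them.

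Each gene has 1 level, the normalized count as averaged by the authors across the 6 libraries, with *SPO11* and *spo11-YF* cultures pooled. A pooled mean has no spread between cultures, so no value below carries a replicate error, and neither the strains nor neighbouring genes in an order of levels could be tested against each other. The depth of each library is unknown. On the scale of the table the levels of all genes added up to 2759217 counts, and the median gene had 218.5. Because a longer mRNA gives more fragments, genes are compared per kilobase of coding sequence, with the coding length taken from S288C. As a check of the labelled stage, the 6 early meiotic genes *HOP1*, *RED1*, *DMC1*, *ZIP1*, *REC8* and *MEK1*, which act in meiotic recombination, lay between 1646 and 7007 counts per coding kilobase. The mid-meiotic genes *SPS1*, *SMK1* and *CLB1*, which need Ndt80, lay between 16.8 and 61.7, whereas *SPS2*, of the same kind, had 312 counts per coding kilobase.

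The 61 genes together had 9306 counts, which was 0.337% of the total (95% Wilson interval 0.330% to 0.344%). That interval treats averaged, adjusted values as read counts, so it gives neither the counting error of the libraries nor the spread between cultures. This share leaves out the other 20 of the 81 annotated genes, so it is not the share of all large-subunit mRNAs, and with the joint entry of *RPL4B* and *RPL4A* added it was 0.354%. None of the 10 genes with the most counts was a large-subunit gene, and 1 of the 61, *RPL3*, stood among the 500 genes with the most counts. The 61 are few among 5297 genes, so that a top 10 without them says little. By level per coding kilobase *RPL3* was 361st and *RPL10* 466th. Per coding kilobase, the median of the 61 genes was 230.1 counts, against 165.0 for all genes with a coding length, a ratio of 1.39. Of the 61 genes, 36 were above that median of all genes and 25 below it, and 2 were in the top 10% of all genes. The 61 genes were spread over a range of 27.8-fold, the lowest level being 35.1 and the highest 975 counts per coding kilobase. The lowest, *RPL22B*, had 12.9 counts, which is near the lowest count of any gene (8.21). The comparison of the medians depends on the length, because large-subunit genes are short. Their median coding length was 483 bases, against 1284 for all genes, and without division by length their median of 97.6 counts was 0.447 times that of all genes.

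**Figure D1:**
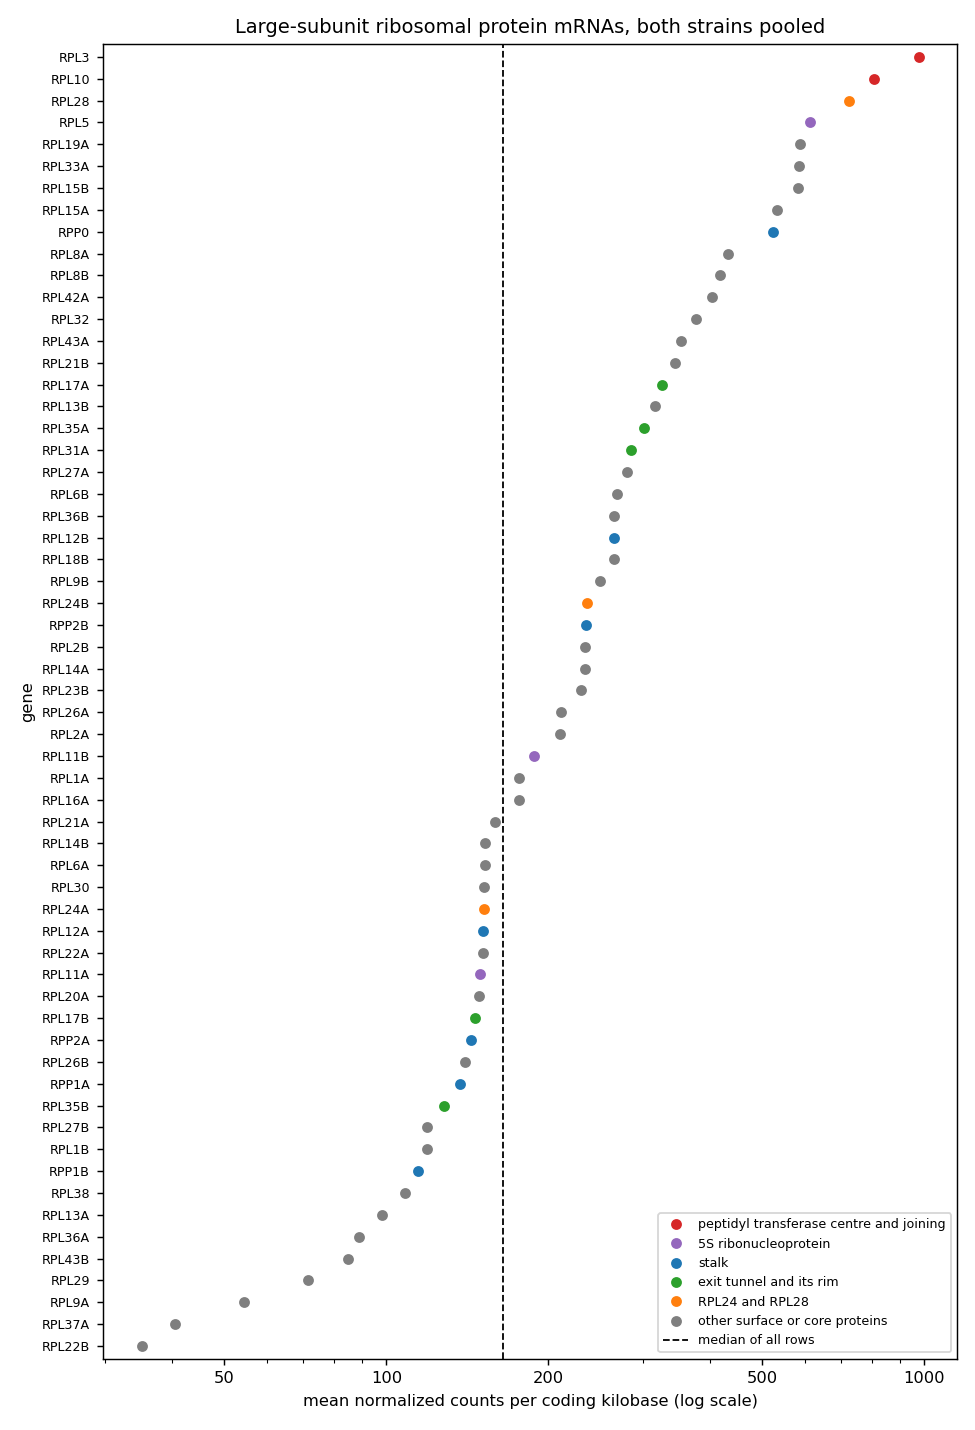
Level of 60 large-subunit genes, as mean normalized counts per coding kilobase on a log axis, highest at the top, coloured by role. Each point is 1 pooled mean over 6 libraries with no error bar, the dashed line is the median of all genes (165.0), with *RPL3* (975) at the top and *RPL22B* (35.1) at the bottom.

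The median of the small subunit was close to that of the large subunit. The medians were 230.1 counts per coding kilobase for the 61 large-subunit genes and 227.7 for 39 small-subunit genes (*RPS* with a number), a ratio of 1.01, and the ranges between the quartiles overlapped (146.2 to 325 for the large subunit and 137 to 311 for the small subunit). The 61 large-subunit genes took 0.337% of all counts and the 39 small-subunit genes 0.195%. Neither is the share of a whole subunit. Left out were 20 of the 81 annotated large-subunit genes and 17 of the 56 annotated small-subunit genes, among them those with only a joint entry. The 33 genes of the mitochondrial large subunit (*MRPL* with a number), which build the ribosome of the mitochondrion, had a median of 113 counts per coding kilobase, and 9 of these 33 genes were above the median of all genes. The 6 early meiotic genes of the stage check did not overlap with the large-subunit genes. The lowest of the 6, *RED1*, had 1646 counts per coding kilobase and the highest large-subunit gene, *RPL3*, had 975. These 6 were picked for that check and do not stand for all early meiotic genes. By level per coding kilobase *RPL3* was 361st of the 5276 genes with a coding length.

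**Figure D2:**
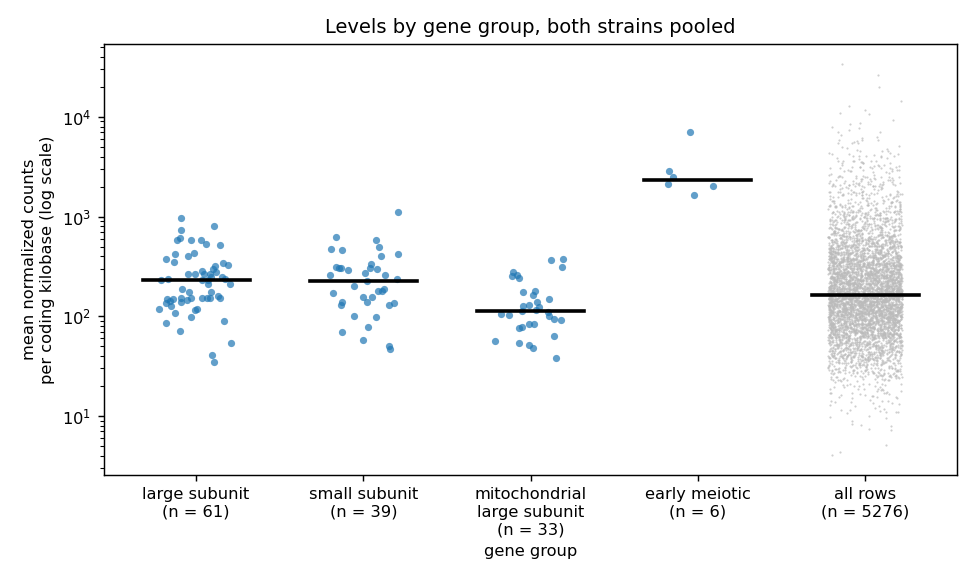
Levels per coding kilobase on a log axis for large-subunit genes (61), small-subunit genes (39), mitochondrial large-subunit genes (33), 6 early meiotic genes and all genes with a coding length (5276). Each point is a gene's pooled mean and each bar a group median, and the medians of the first 3 groups are 230.1, 227.7 and 113.

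The 5 genes with the highest levels per coding kilobase began with *RPL3*. This gene, whose protein reaches towards the peptidyl transferase centre, had 1135 counts, or 975 per coding kilobase. *RPL10*, whose protein joins last in the cytoplasm and completes the active subunit, had 537 counts, or 806 per coding kilobase. *RPL28*, a gene in which mutations give resistance to the translation inhibitor cycloheximide, followed with 326 counts, or 725 per coding kilobase. *RPL5* was next with 549 counts, or 614 per coding kilobase. These 4 genes have a single copy each. The fifth was *RPL19A*, whose protein forms a bridge to the small subunit, with 335 counts, or 587 per coding kilobase; its copy B is among the genes not analysed here.

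Within the 5S ribonucleoprotein, which is the 5S rRNA bound to Rpl5 and Rpl11, the mRNAs were uneven. The single *RPL5* had 614 counts per coding kilobase, and *RPL11B* and *RPL11A* had 187.9 and 149 (98.6 and 78.3 counts). The copies of *RPL11* added up to 337 counts per coding kilobase, so that their sum remained below *RPL5*. The copies share 55.9% of their 75-base coding stretches, so that the split between them is uncertain, whereas their sum is less affected.

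The stalk recruits the translation factors that drive elongation. Its base protein is encoded by *RPP0*, which had 491 counts, or 523 per coding kilobase. Each of the 4 genes of the small acidic proteins that bind to it as dimers was lower, taken alone, and their levels were not added up here. These 4 genes have 321 or 333 coding bases against 939 for *RPP0*, and the part of length in this difference was not tested. *RPP2B* had 78.2 counts (235 per coding kilobase), *RPP2A* 46.1 (144), *RPP1A* 44.0 (137) and *RPP1B* 36.7 (114). *RPL12B* and *RPL12A*, whose protein lies beside the stalk base, had 131.8 and 75.3 counts (265 and 151 per coding kilobase).

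Among the 61, the exit tunnel and its rim were represented by 5 genes. *RPL17A* and *RPL17B*, whose protein lines the tunnel, had 180.2 and 81.1 counts (325 and 146 per coding kilobase). *RPL35A* and *RPL35B*, whose protein sits at the rim where factors dock, had 109 and 46.5 counts (301 and 128 per coding kilobase). *RPL31A*, at the rim as well, had 97.6 counts, or 285 per coding kilobase. The joint entry of *RPL4B* and *RPL4A*, whose protein also lines the tunnel, was not split between the copies, and *RPL25*, *RPL31B*, *RPL39* and the ubiquitin fusion genes *RPL40A* and *RPL40B* were not analysed here. *RPL24B* and *RPL24A*, whose protein joins the subunit late and contacts the small subunit, had 110.4 and 71.0 counts (236 and 152 per coding kilobase).

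At the low end of the order were *RPL22B* (12.9 counts, 35.1 per coding kilobase), *RPL37A* (10.8 counts, 40.5), *RPL9A* (31.3 counts, 54.3), *RPL29* (12.9 counts, 71.7) and *RPL43B* (23.7 counts, 85.0). The lowest count of any gene was 8.21, so that *RPL22B*, *RPL37A* and *RPL29* stood near the bottom of all genes by counts. Per coding kilobase they were 5034th, 4932nd and 4318th of 5276 genes, so that *RPL29* was further from the bottom on that scale. *RPL22B*, *RPL9A* and *RPL43B* were the lower copy of a pair whose other copy had 4 times as much or more. *RPL37A* has a copy B that was not analysed here. *RPL29* has no second copy and has the shortest coding sequence of the 61, with 180 bases. *RPL38*, also a single-copy gene, had 25.7 counts, or 108 per coding kilobase, with 237 coding bases. *RPL30*, whose protein represses the splicing of its own transcript, was 40th of the 61 with 48.4 counts, or 152 per coding kilobase, with 318 coding bases. *RPL32*, with 393 coding bases, had 147.7 counts, or 376 per coding kilobase.

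Short genes were lower also per coding kilobase. The 27 genes under 450 coding bases had a median of 152 counts per coding kilobase, and the 34 genes of 450 bases or more had 248. Across the 61 genes, which share their 6 libraries, the level per coding kilobase was higher at larger coding length (Spearman's rho 0.43 and, on the log2 scale, Pearson's r 0.50, given as a description). Few fragments of the selected size fit on a very short mRNA, and the part of this in the low values of *RPL29*, *RPL37A* and *RPL38* was not tested.

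For 20 proteins both copies could be compared. The stalk genes *RPP1A*, *RPP1B*, *RPP2A* and *RPP2B* were not treated as pairs, since the A and B genes were taken to encode different proteins. Copy A was higher in 9 pairs and copy B in 11. The higher copy had a median of 1.75 times the counts of the lower copy, with a range from 1.03 to 4.60 times, and in 9 pairs it exceeded 2 times. In those 9 pairs the higher copy was A in 5 and B in 4, so that neither letter marked the more abundant mRNA. In all 20 pairs the order was the same per coding kilobase, because 19 pairs encode coding sequences of equal length.

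The most uneven pairs ran in opposite directions. *RPL9B* had 143.8 counts and *RPL9A* 31.3, a ratio of 4.60, so that copy B supplied 82.1% of the mRNA of this protein, which lies near the factor binding site. *RPL22A* had 55.3 counts and *RPL22B* 12.9, a ratio of 4.28, with the lower copy near the lowest count of any gene. The Rpl22 protein is known to repress the splicing of *RPL22B* and to be needed in meiosis for translation of the mRNA of the meiotic regulator Ime1. *RPL43A* had 98.5 counts and *RPL43B* 23.7, a ratio of 4.15.

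Less uneven were *RPL13B* and *RPL13A* with 189.5 and 58.8 counts (ratio 3.22), and *RPL36B* and *RPL36A* with 80.2 and 27.0 counts (ratio 2.97). In the next pairs copy A was the higher, with 115 counts for *RPL27A* and 48.9 for *RPL27B* (ratio 2.35), and with ratios of 2.35 for *RPL35* and 2.22 for *RPL17*. *RPL21B* and *RPL21A* had 166 and 76.9 counts (ratio 2.16). At the other end stood pairs with nearly equal copies. In 4 pairs the ratio was under 1.2. Among them, *RPL8A* and *RPL8B* had 332 and 321 counts, *RPL15B* and *RPL15A* 358 and 327, and *RPL2B* and *RPL2A* 179 and 161. The other 7 pairs (*RPL6*, *RPL12*, *RPL24*, *RPL14*, *RPL26*, *RPL1* and *RPL11*) had ratios between 1.26 and 1.76. *RPL15* and *RPL8* were also the pairs with the most counts, 685 and 653 for both copies together. For 8 further genes the other copy was not analysed here, and these ran from 40.5 counts per coding kilobase for *RPL37A* to 587 for *RPL19A*. Among them, *RPL33A* had 585, *RPL42A* 402, *RPL23B* 230.1, *RPL16A* 177 and *RPL20A* 149 counts per coding kilobase.

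**Figure D3:**
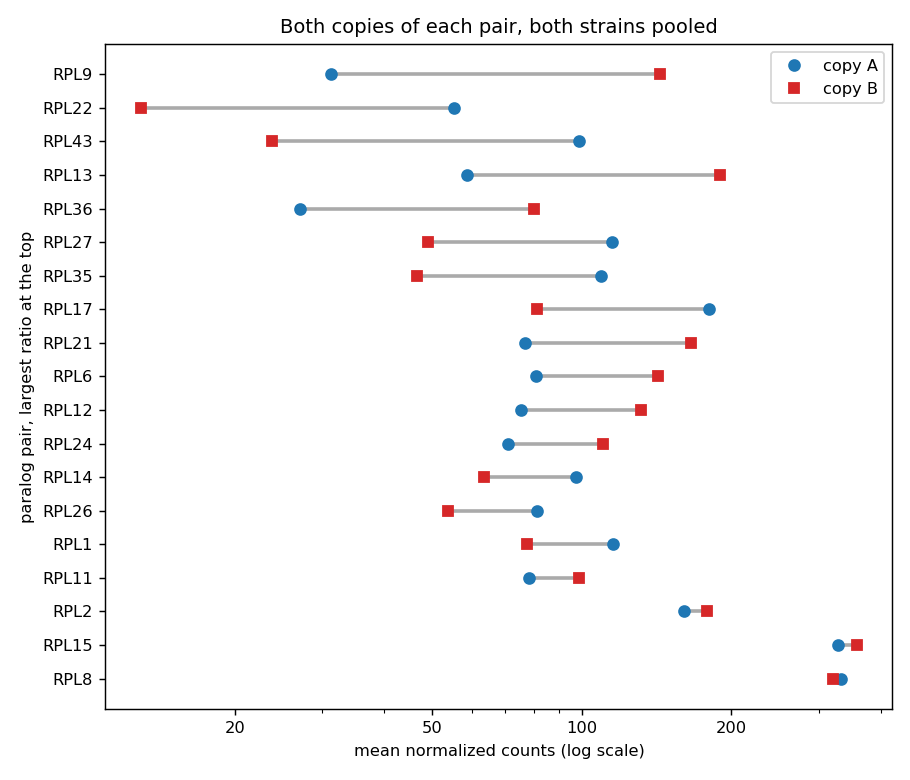
Mean normalized counts on a log axis for both copies of 19 pairs, copy A as circles and copy B as squares, with the largest ratio at the top. Each point is 1 pooled mean without an error bar; *RPL9* has copy B 4.60 times above copy A, *RPL22* has copy A 4.28 times above copy B, and the copies of *RPL8* differ by 1.03 times.

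Copies that share long stretches of sequence cannot be told apart by read pairs that fall wholly there, and the authors' estimates divide such reads between them. Shared stretches are counted here for single reads of 75 bases, without regard to the mate of each read. The coding sequences of the 20 pairs were between 78.9% and 99.4% identical in S288C, with a median of 93.2%. In 9 pairs no stretch of 75 bases, the length of a read, was shared, and these had a median ratio of 2.22, with 6 of the 9 over 2 times. The 11 pairs that share at least 1 stretch had a median ratio of 1.49, with 3 of the 11 over 2 times. *RPL35* (78.9% of stretches shared), *RPL1* (71.6%) and *RPL11* (55.9%) share more than 50%, and their ratios of 2.35, 1.49 and 1.26 are uncertain for that reason. Across the 20 pairs the log2 ratio was lower at higher identity of the coding sequences (Spearman's rho -0.58 and Pearson's r -0.57, as a description over pairs of the same libraries). The part of shared reads in the near-equal pairs was not tested. Of the 3 most uneven pairs, *RPL9* shares 7.17% of such stretches and *RPL22* and *RPL43* share none.

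**Figure D4:**
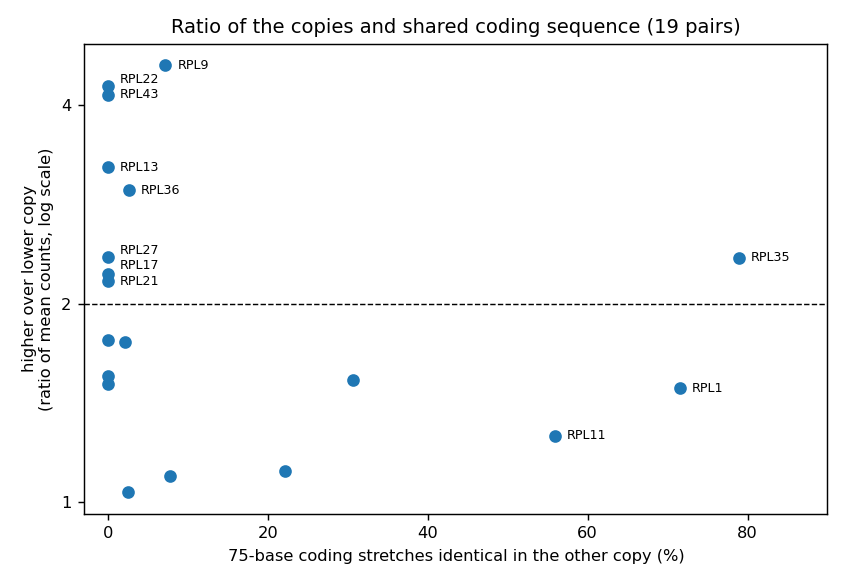
Ratio of the higher to the lower copy on a log axis against the percentage of 75-base coding stretches that are identical in the other copy, for 19 pairs. The dashed line marks a ratio of 2; 6 of the 9 pairs at 0% lie above it, and of the 3 pairs beyond 50% only *RPL35* does.

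Most proteins of the large subunit are present once in each ribosome, so that the levels can also be set out per protein, with the copies added up. This was done for 29 proteins, 20 with 2 copies and 9 with 1 copy. The stalk genes *RPP1A*, *RPP1B*, *RPP2A* and *RPP2B* were left out. The 2-copy proteins lay close together. Their quartiles were 353 and 450.5 counts per coding kilobase, 1.28 times apart, around a median of 415. Among the 40 genes behind these sums, taken one by one, the quartiles were 148 and 271, which is 1.83 times apart. A sum of 2 values varies less than single values do in any case, and how much of the narrowing goes beyond that was not tested. *RPL9*, with the most uneven pair, had a sum of 304 counts per coding kilobase, and *RPL43* had 438. *RPL15* was the highest of the 29 proteins with 1114 and *RPL22* the lowest of the 2-copy proteins with 186.3.

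The 9 single-copy genes were spread more widely. They ran from 71.7 counts per coding kilobase for *RPL29* to 975 for *RPL3*, with quartiles of 152 and 725, 4.77 times apart. *RPL3*, *RPL10*, *RPL28*, *RPL5* and *RPP0* were above all 2-copy sums except those of *RPL15* and *RPL8*, and *RPL30*, *RPL38* and *RPL29* were below all of them. *RPL32*, with 376 counts per coding kilobase, was the 1 single-copy gene among the bulk of the 2-copy sums. The single-copy genes also differ in length. *RPL30*, *RPL38* and *RPL29* have 318, 237 and 180 coding bases. *RPL3*, *RPP0*, *RPL5* and *RPL10* have 1164, 939, 894 and 666, although *RPL28* has only 450. The part of coding length in this spread was not tested.

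**Figure D5:**
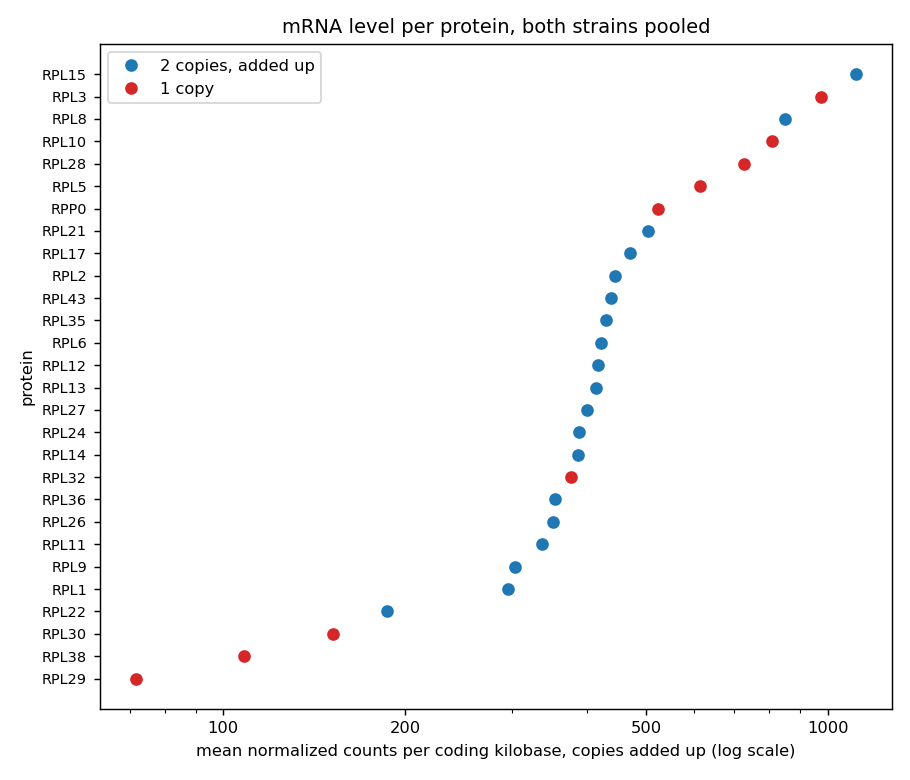
Level of 28 proteins as mean normalized counts per coding kilobase, copies added up, on a log axis, with 2-copy proteins in blue and 1-copy proteins in red. The blue points crowd between 295 (*RPL1*) and 503 (*RPL21*) apart from *RPL15*, *RPL8* and *RPL22*. The red points lie above or below that range, apart from *RPL32* (376).

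Introns are a common feature of ribosomal protein genes in yeast, which otherwise has few of them. In the S288C annotation 37 of the 61 genes had an intron (60.7%), against 3.92% of all 5276 genes with a coding length. Genes with an intron had a median of 211 counts per coding kilobase and those without had 235, and the ranges between the quartiles overlapped (146.2 to 285 and 148 to 454). Their median coding lengths were 414 and 550.5 bases, and the part of length in this difference was not tested. The ends of the order held both kinds, since *RPL28* and *RPL19A* have an intron and *RPL3*, *RPL10* and *RPL5* do not.

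Genes that act on the large-subunit proteins were set beside them. *RAP1*, the general activator of these genes, had 1295 counts, or 522 per coding kilobase. The specific factors *FHL1* and *IFH1* had 610.4 and 822 counts (217 and 252 per coding kilobase), and *SFP1*, which links them to nutrient signalling, had 598 (291). *HMO1*, which binds many of their promoters, had 117 counts (159 per coding kilobase), and *CRF1*, a corepressor that competes with Ifh1, had 170.9 (122). Some large-subunit proteins have a chaperone of their own. *RRB1*, for Rpl3, had 437 counts (285 per coding kilobase) and *SQT1*, for Rpl10, 337 (260.03), which was below the level of the client gene in both cases. *SYO1*, which carries Rpl5 and Rpl11 into the nucleus, had 233 counts (125), *ACL4*, for Rpl4, 187 (161) and *BCP1*, for Rpl23, 47.9 (56.3). Of these 11 regulators and chaperones, *RAP1* had the highest level per coding kilobase, and 3 of the 61 large-subunit genes (*RPL9A*, *RPL37A* and *RPL22B*) were below *BCP1*, the lowest.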

How the data were processed

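The labels give 3 *SPO11* and 3 *spo11-YF* libraries (poly(A) RNA, strand-specific, read in pairs of 75 bases). Per the methods of the study and the submitters' processing notes (Trim Galore, STAR, Salmon, DESeq2; versions not given in the sources used here), the authors used the nf-core pipeline with SK1 as the genome, estimated counts per gene, adjusted them for batches with ComBat-Seq and fitted DESeq2. The deposited table gives 1 signal value per gene, the normalized count averaged by the authors across the 6 libraries; the batches are not stated, and adjusted values are no longer read counts. Its other columns hold the authors' own comparison of the strains (log2 fold change, standard error, statistic and p-values) and were not used. For 1 gene and its pair no single values are reported here; counts and medians include them. As no value per library is used here, no test between strains was made.

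Levels were divided by coding length from S288C R64, which matched 5276 of 5297 rows by systematic name (all 61 members); 18 of the rows join the names of near-identical genes, 1 of them of the large and 2 of the small subunit, and entered only the totals and the median count of all genes. As the authors used SK1, no coordinates or sequences are given. Exact 75-base stretches were searched on the coding strand of all R64 coding sequences, and pairs were aligned globally with Biopython. The functions were tested on simulated data. Named were the 5 highest and 5 lowest members, single-copy genes, pairs over 2 times apart, and the members of role groups (stalk, 5S particle, catalytic centre, tunnel, *RPL24* and *RPL28*); other near-equal pairs were chosen after their values were seen. The members and lists were chosen with earlier results of these data known; the sums per protein, the intron comparison, the length split and the correlations were added after the values were seen. Biopython 1.88, matplotlib 3.10.9, pandas 2.3.3, numpy 2.4.6 and scipy 1.17.1 ran under Python 3.11.15. Alternatives were other lengths, filters and choices of pairs.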

Additional observations from a re-analysis of the deposited data

How the results depend on the processing

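No paired analysis was possible because the values used here are 1 mean per gene over all libraries; for the same reason leaving out replicates, other count models and normalizations, and any test of the strains were not run. The share of large-subunit genes, 0.337% of all counts, was 0.368% without the 10 highest genes and 0.354% with the joint entry of *RPL4B* and *RPL4A* added (chosen after seeing the data), and did not move without genes under 10 counts. The ratio of their median level per coding kilobase to that of all genes, 1.39, turned to 0.447 without division by length and was 1.84 when 200 bases were taken off each length (at least 100 bases kept). It was 1.39 without genes under 10 counts and 1.42 without the members that share over 50% of their 75-base stretches. The ratio to the small subunit, 1.01, was 0.929 without division by length and 0.974 with the reduced length, so which subunit is higher depends on the length used. The number of pairs with copy A higher (9) was the same per coding kilobase. The number over 2 times apart (9) was also 9 per coding kilobase, and 8 among the 17 pairs that share under 50% of their stretches. Without values per library, differences between neighbouring genes cannot be resolved.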

Other observations

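Of 5 genes of translation elongation factors, looked up after the highest levels of the table had been seen, *TEF2*, *TEF1* and *YEF3* lay above each of the 61 large-subunit genes and *EFT1* and *EFT2* were within their range, per coding kilobase. *TEF2*, which encodes elongation factor 1A, had 16005 counts and was 8th of all genes, which is 1.72 times the sum of all 61 large-subunit genes. Its near-identical copy *TEF1* had 7462 counts. The copies share 88.7% of their 75-base coding stretches, so the split between them is uncertain. *YEF3*, which encodes elongation factor 3 and shares no such stretch with another gene, had 4813 counts (1535 per coding kilobase). *EFT1* and *EFT2*, which encode elongation factor 2, had 1345 and 756 counts (532 and 299 per coding kilobase). Of the 75-base coding stretches of each, 87.8% occur in another gene, so that their single values are uncertain as well. No cause was tested.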
